A study of Saccharomyces cerevisiae with 26 samples.

Results

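Ribosome occupancy, the Ribo-Seq level of a gene relative to its RNA-Seq level, was compared between pub1Δ yeast and the wild type (wt). Of the 26 libraries of the series, 17 entered, and 4473 of the 7036 counted genes passed the filter of 10 CPM (read counts relative to the total of their library) or more in at least 4 libraries of each assay. Occupancy was the mean log2 CPM of Ribo-Seq minus the mean log2 CPM of RNA-Seq within a strain and batch, and a difference is pub1Δ minus wt on the log2 scale. A gene was described as differing the same way when its difference was 0.5 or more in size (1.41-fold) with the same sign in both comparisons. PUB1, the deleted gene, was left out of that description.

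Both strains were Saccharomyces cerevisiae BY4742 (MATα his3Δ1 leu2Δ0 lys2Δ0 ura3Δ0), and pub1Δ carried in addition a KanMX cassette in place of PUB1, introduced by transformation. How many transformants were used is not given in the sources used here. Cells grew exponentially in YPD at 30 °C, and cycloheximide was in the lysis buffer. RNA-Seq libraries were made from oligo(dT)-selected mRNA, and Ribo-Seq libraries from the RNase I-resistant fragments of the monosome fraction, from parts of the same lysates.

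The first comparison lay within batch 1, with 3 RNA-Seq and 2 Ribo-Seq libraries of wt (RNA-Seq replicates 1, 4 and 5, Ribo-Seq replicates 1 and 4) and 1 library of each assay of pub1Δ (RNA-Seq replicate 5, Ribo-Seq replicate 4). The second set pub1Δ of batch 3, with replicates 1, 2 and 3 of each assay, against wt of batch 4, with replicates 2 and 3 of each assay. The comparisons share no library. Batch 3 held pub1Δ alone, so in the second comparison strain and batch cannot be told apart. Another pub1Δ RNA-Seq library, replicate 4 of batch 4, is outside the definition and was used as an alternative in place of the batch 3 RNA-Seq libraries. Nothing in the labels says that replicates of a strain were separate cultures, so the p-values measure the spread between these libraries.

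Pub1 is an abundant RNA-binding protein with RNA recognition motifs that binds U-rich sequences of mRNAs, affects the stability of some of them, and enters stress granules. Footprints report ribosomes on a message and RNA-Seq reports the message itself, so occupancy can be higher because a gene has more footprints, less mRNA, or both. Fewer messages and fewer ribosomes per message are separated here only through this ratio, and all levels are relative to the library total.

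The 17 libraries held 2217490 to 3896827 gene counts in RNA-Seq and 540986 to 3123180 in Ribo-Seq, with the 3 pub1Δ Ribo-Seq libraries of batch 3 the shallowest (540986 to 986174). PUB1 had 639 to 2457 counts in the wt libraries, 1 to 3 in the pub1Δ RNA-Seq libraries, and 1, 20, 4 and 6 in pub1Δ Ribo-Seq replicates 1 to 4. The α pheromone genes marked all libraries as MATα, with MF(ALPHA)1 at 827 to 8968 counts, whereas the MATa markers MFA1, MFA2, STE2, BAR1 and AGA2 had 0 to 15. The other α markers, STE3 and SAG1, differed by batch. In Ribo-Seq, STE3 had 668 to 872 counts in batch 1 but 5 to 35 in batches 3 and 4, which overlaps the MATa markers. SAG1 had 1695 to 2307 and 28 to 53 Ribo-Seq counts. For RNA-Seq replicate 1 of pub1Δ the genotype field gives a GIR2 deletion instead, but its title says pub1Δ, it held 1 count of PUB1, and it was grouped by its title.

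Over all tested genes the differences centred near 0, with a median of -0.00 and an SD across genes of 0.27 in batch 1 and a median of -0.01 and an SD of 0.43 in the second comparison. A difference of 0.5 or more was found in 6.75% of genes in batch 1 and in 22.1% in the second comparison. The same measure between wt of batches 4 and 1 reached 0.5 in 26.8% of genes. Across the 4473 genes the differences of the comparisons correlated at Pearson r = 0.16. Genes above 0 made up 49.1% in each comparison, 27.7% were above 0 in both and 29.4% were below 0 in both.

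Differing by 0.5 or more the same way were 27 genes with higher occupancy in pub1Δ (0.604% of those tested) and 45 with lower occupancy (1.01%), whereas 28 genes reached 0.5 in opposite directions (0.626%). Of the 27, the gene with the highest difference in the second comparison, and the third highest in batch 1 after PPM2 (1.05) and GDH2 (0.96), was CLG1, which encodes a cyclin-like protein that interacts with the kinase Pho85. Among the higher genes were also SBP1 and CCR4, which act in mRNA repression and deadenylation, and MET5, MET13 and GDH2 of sulfur and nitrogen metabolism. The lower genes were mostly short and included RPL29, RPL41B and MRPL25 for ribosomal proteins, COX9, COX12 and COX16 for cytochrome c oxidase subunits or its assembly, and SPC2 and SRP21 for parts of the secretory machinery. Just inside the limit lay SSK1 (0.50 and 0.58) and RBL2 (-0.50 and -0.61), and just outside lay AMN1 (0.51 and 0.50, the latter below the limit before rounding) and ODC2 (-0.49 and -0.84).

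**Figure D1:**
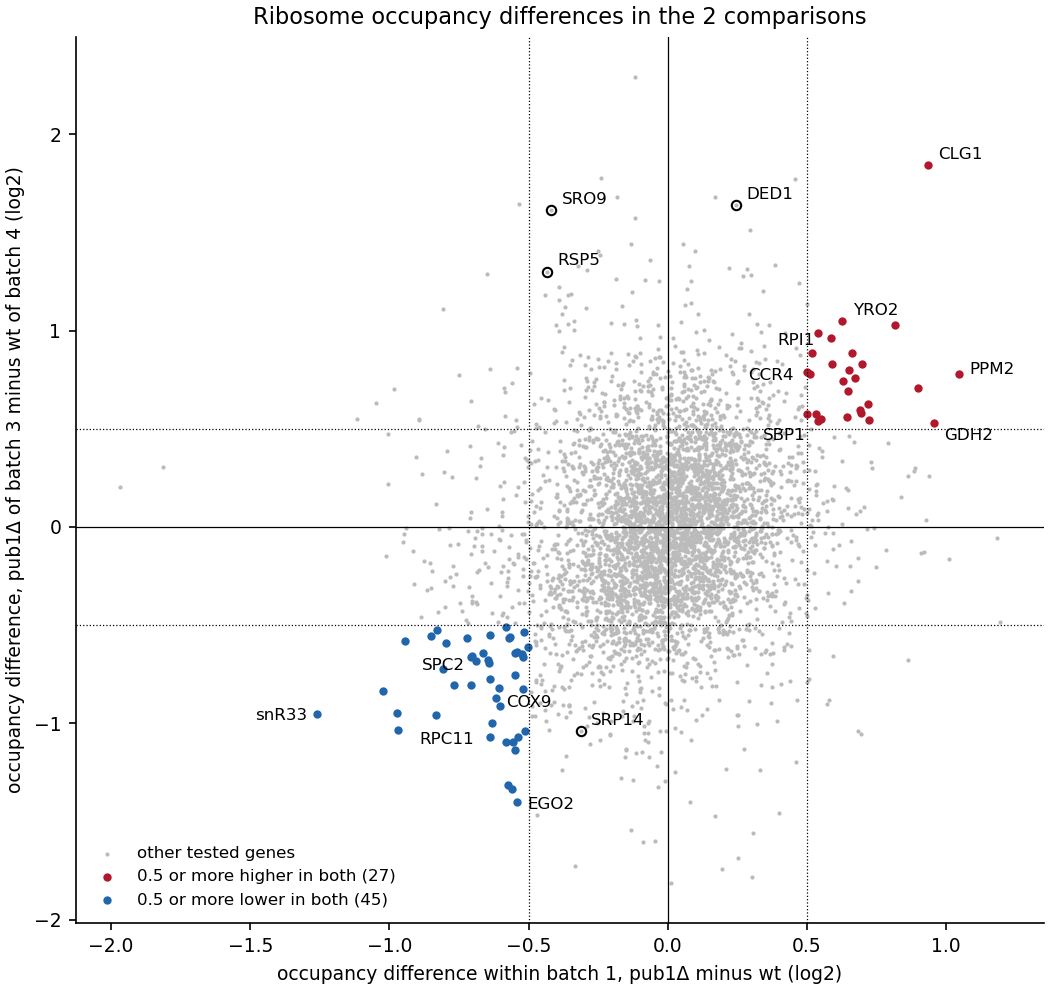
Occupancy difference of each tested gene within batch 1 (x axis, log2) against that of pub1Δ of batch 3 and wt of batch 4 (y axis, log2), with dotted lines at 0.5 in size. The 27 genes higher in both are red and the 45 lower in both are blue, CLG1 stands farthest to the upper right at 0.93 and 1.84, and the circled genes DED1, SRO9, RSP5 and SRP14 passed the test in the second comparison without reaching 0.5 the same way in batch 1.

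Because Pub1 is known for binding U-rich RNA, runs of T were looked up in the gene strand of the 100 bases before the start codon and the 100 bases after the stop codon. RefSeq annotates reading frames alone for these genes, so the windows are flanks and not measured transcript ends. A run of 6 or more T (TTTTTT) lay after the stop codon in 13 of the 27 higher genes (48.1%), in 10 of the 43 lower genes with a reading frame (23.3%) and in 26.7% of the 4461 tested genes with one. Before the start codon it lay in 9 of the 27 higher genes (33.3%), in 4 of the 43 lower genes (9.3%) and in 12% of all. On the opposite strand (AAAAAA in the gene strand) the shares after the stop codon were 14.8% of the higher, 20.9% of the lower and 20.2% of all genes, and before the start codon 14.8%, 27.9% and 23.8%. These shares describe the sequences and received no test, since the genes were chosen by their occupancy, and a run is not evidence that Pub1 binds there.

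Of the 27 higher genes, 16 had such a run on at least one side and 6 on both sides. The runs of 12 or more T are shown because they were the longest, and those of CLG1 because it was called. The run is in capitals and its neighbouring bases are in lower case, 5′ to 3′ in the direction of the gene, from RefSeq assembly R64.
CLG1, before the start codon, chrVII:87886-87907, plus strand: aaggaaTTTTTTTTTTctttaa
CLG1, after the stop codon, chrVII:89341-89360, plus strand: gaaaacTTTTTTTTccttat
CLG1, after the stop codon, chrVII:89354-89371, plus strand: tccttaTTTTTTctttga
SPT8, before the start codon, chrXII:253088-253112, minus strand: gctcagTTTTTTTTTTTTTcttctt
SPT8, after the stop codon, chrXII:251189-251218, minus strand: cgtttaTTTTTTTTTTTTTTTTTTcagggc
RPI1, before the start codon, chrIX:137901-137925, minus strand: taagtcTTTTTTTTTTTTTctcatc
YBL081W, before the start codon, chrII:71820-71843, plus strand: attttcTTTTTTTTTTTTggctct
MET13, after the stop codon, chrVII:274395-274419, plus strand: attgcaTTTTTTTTTTTTTattcac
SSK1, after the stop codon, chrXII:161655-161673, minus strand, up to the end of the window: aaagaaTTTTTTTTTTTTT
The T content of the windows had little relation to the differences across genes, with r between 0.01 and 0.09. Over 5 groups of genes of increasing coding length and nearly equal number, the share of genes with a run of 6 or more ran from 23.3% to 28.3% after the stop codon and from 9.13% to 14.6% before the start codon. With runs of 8 or more, the shares were 22.2% of the higher, 6.98% of the lower and 9.46% of all genes after the stop codon, and 22.2%, 0% (0 of 43) and 3.32% before the start codon. Among the 139 genes that differed by 0.3 or more upwards in both, a run of 6 or more lay after the stop codon in 38.8% and before the start codon in 16.5%.

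CLG1 (YGL215W, chromosome VII, 87981 to 89339, a reading frame of 1359 bases) was the only gene called in the mean of both comparisons (1 of 4473, 0.0224%). In RNA-Seq it stood at 209, 190 and 204 CPM in wt of batch 1 and at 174 CPM in pub1Δ, and at 211 and 218 CPM in wt of batch 4 against 92.8, 113 and 152 CPM in pub1Δ of batch 3. In Ribo-Seq it stood at 58.6 and 53.4 CPM in wt of batch 1 and at 93.2 CPM in pub1Δ, and at 59.6 and 70.0 CPM in wt of batch 4 against 136, 109 and 140 CPM in pub1Δ of batch 3. Every pub1Δ library of batches 1 and 3 was below every wt library in RNA-Seq and above every wt library in Ribo-Seq. The share of all tested genes whose levels separate the strains, as for CLG1 or genes described below, is not given here. Occupancy was -1.83 in wt and -0.89 in pub1Δ of batch 1, and -1.72 in wt of batch 4 and 0.13 in pub1Δ of batch 3.

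The fitted change of CLG1 was 1.38 (SE 0.19) in the mean of both comparisons (edgeR quasi-likelihood test, Benjamini-Hochberg adjusted p = 0.00236), 1.81 (SE 0.25) in the second comparison (adjusted p = 0.000926), and 0.94 (SE 0.29) in batch 1 (unadjusted p = 0.00408, edgeR adjusted p = 1). With pub1Δ RNA-Seq replicate 4 of batch 4 in place of the batch 3 RNA-Seq libraries, which held CLG1 at 178 CPM, the change was 1.24 in the second comparison (edgeR adjusted p = 0.077) and 1.08 in the mean (edgeR adjusted p = 0.00559). The mean was called in 25 of 26 alternatives, with values from 0.97 to 1.50 and adjusted p from 1.57e-07 to 0.664, and was not called with batch and strain as additive terms (0.97, edgeR adjusted p = 0.664). For comparison, the 4 gir2Δ strain libraries of each assay, which keep PUB1, had CLG1 at 158, 144, 151 and 120 CPM in RNA-Seq and at 68.9, 58.1, 52.8 and 47.6 CPM in Ribo-Seq. These values were scaled over all 26 libraries. The RNA-Seq levels of gir2Δ were also below the wt values above, so lower CLG1 mRNA was not particular to pub1Δ.

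**Figure D2:**
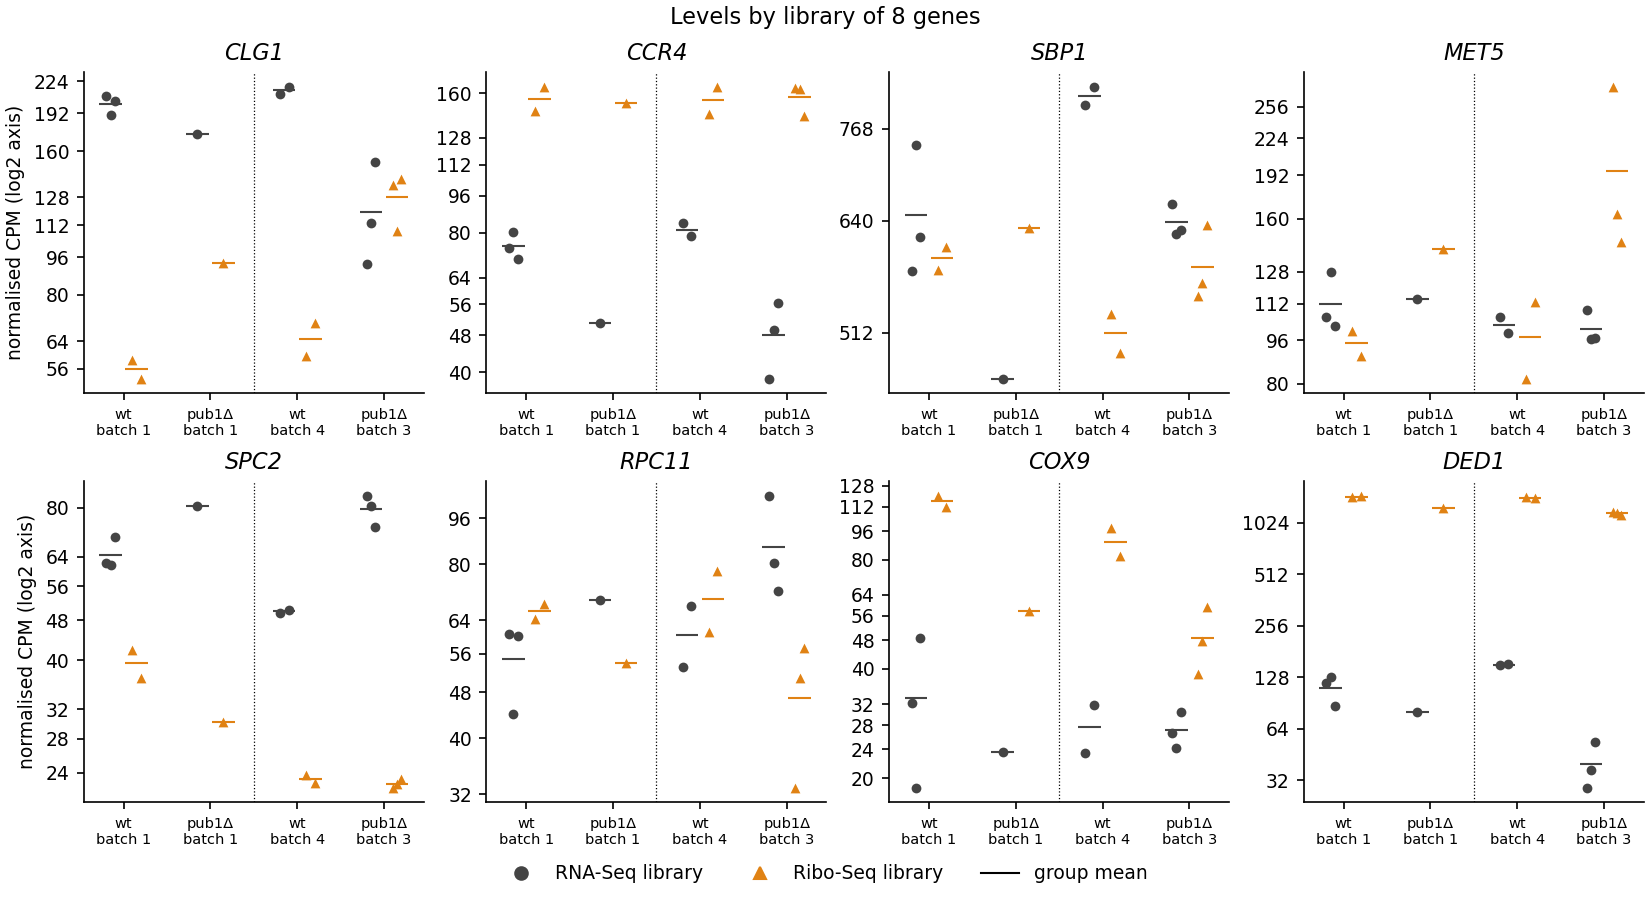
Normalised CPM on a log2 axis of 8 genes in each RNA-Seq library (grey circles) and Ribo-Seq library (orange triangles) of the 4 groups, with a horizontal line at the group mean and a dotted line between the comparisons. CLG1 is lower in RNA-Seq and higher in Ribo-Seq in both pub1Δ groups, CCR4 is lower in RNA-Seq at a like Ribo-Seq level, and DED1 is lower in RNA-Seq in pub1Δ of batch 3, at 28.9 to 53.4 CPM.

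No gene was called within batch 1 (0%), where 87 of the 4473 genes had an unadjusted p under 0.05 by edgeR and where DESeq2 also called 0. The smallest adjusted p of a same-way gene other than CLG1 in the mean of both comparisons was 0.199, shared by 5 genes, so the genes described next, CLG1 apart, did not pass this test. Other fits called some of them in the mean, but these fits also called more genes among all those tested, with the counts given further on. With batch and strain as additive terms, 0 genes were called in the mean. DESeq2 called SBP1 and SWR1, and edgeR on counts adjusted by ComBat-seq called these as well as SPT8, SPC2, EST3 and snR33, with adjusted p of 0.00271 for SBP1, 0.00233 for SPT8 and 0.0131 for SPC2. Their fitted standard errors are given so that size and spread can be set side by side.

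CCR4 and SBP1 act in mRNA decay and repression, and other genes of that list were lower or near 0, such as PBP4 at -0.29 and -0.37. CCR4, the catalytic subunit of the Ccr4-Not deadenylase, was at 74.2, 80.4 and 70.3 CPM of RNA-Seq in wt of batch 1 against 51.2 CPM in pub1Δ, and at 83.8 and 78.6 CPM in wt of batch 4 against 38.7, 49.4 and 56.5 CPM in pub1Δ of batch 3. Its Ribo-Seq level was 144 to 165 CPM in the 4 wt libraries and 143 to 164 CPM in the 4 pub1Δ libraries. In these libraries the RNA-Seq levels of the strains did not overlap and the Ribo-Seq levels did. The occupancy differences were 0.51 and 0.78 (fitted mean 0.65, SE 0.16, edgeR adjusted p = 0.199). With the batch 4 RNA-Seq library, where CCR4 was at 73.5 CPM and within the wt range, the second difference was 0.18. SBP1, an RGG-motif protein that represses translation and promotes decapping, had differences of 0.55 and 0.55 (fitted mean 0.56, SE 0.13, edgeR adjusted p = 0.199). It stood at 579, 744 and 619 CPM of RNA-Seq in wt of batch 1 against 467 CPM in pub1Δ, and at 805 and 835 CPM in wt of batch 4 against 662, 623 and 628 CPM. Its Ribo-Seq levels were 580 and 607 CPM against 631 CPM, and 531 and 492 CPM against 551, 565 and 634 CPM, so that pub1Δ was above wt in each batch pair but not across them.

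The Ribo-Seq part of the occupancy difference was the larger one for MET5 and GDH2, and the RNA-Seq part for MET13. MET5, a subunit of sulfite reductase, was at 99.8 and 89.9 CPM of Ribo-Seq in wt of batch 1 against 141 CPM in pub1Δ, and at 81.7 and 113 CPM in wt of batch 4 against 278, 163 and 145 CPM. Its RNA-Seq levels were 99.0 to 128 CPM in wt and 96.4 to 114 CPM in pub1Δ and overlapped, and the occupancy differences were 0.54 and 0.99 (fitted mean 0.78, SE 0.22, edgeR adjusted p = 0.233). GDH2, the NAD-dependent glutamate dehydrogenase, was at 32.7 to 45.8 CPM of Ribo-Seq in the wt libraries and at 62.4, 73.1, 78.8 and 59.1 CPM in the pub1Δ libraries, with RNA-Seq at 67.2 to 88.4 CPM in wt and 63.2 to 88.8 CPM in pub1Δ. Its differences were 0.96 and 0.53, and it kept 0.61 with the batch 4 RNA-Seq library. MET13, a methylenetetrahydrofolate reductase, was counted at 24 to 80 reads in the RNA-Seq libraries. In the second comparison its RNA-Seq levels overlapped, at 12.3 and 25.5 CPM in wt of batch 4 and 10 to 12.6 CPM in pub1Δ of batch 3. Its RNA-Seq differences were -0.73 and -0.61 and its Ribo-Seq differences -0.08 and -0.05, and its second occupancy difference of 0.56 was -0.27 with the batch 4 RNA-Seq library.

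Several higher genes act in signalling, chromatin or transport. SWR1, the ATPase that deposits the histone variant H2A.Z, was at 150 to 168 CPM of RNA-Seq in wt of batch 1 against 123 CPM in pub1Δ, and at 118 and 125 CPM against 71.9, 75.5 and 91.3 CPM, with differences of 0.66 and 0.89. SPT8, a subunit of the SAGA coactivator, was at 98.6, 121 and 106 CPM of RNA-Seq in wt of batch 1 against 81.7 CPM, and at 120 and 104 CPM against 84.5, 68.9 and 83.4 CPM, with differences of 0.72 and 0.54. In both genes the RNA-Seq levels of pub1Δ lay below those of wt within each comparison. RPI1, a transcriptional regulator linked to the cell wall and the RAS pathway, had differences of 0.59 and 0.96, and kept 0.86 with the batch 4 RNA-Seq library. STE11, the kinase kinase kinase of the mating pathway, had differences of 0.69 and 0.58. MDM34, of the tether between mitochondria and endoplasmic reticulum, had 0.72 and 0.62. RAD2, a nuclease of nucleotide excision repair, had 0.67 and 0.76, from 6 to 12 footprint counts in the batch 3 libraries. PDR12, a weak-acid exporter, had 0.63 and 0.74, and YBL081W, without an assigned function here, had 0.59 and 0.83. The second differences with the batch 4 RNA-Seq library were 0.32 for SWR1, 0.35 for SPT8, 0.38 for STE11, 0.52 for MDM34, 0.53 for RAD2, 0.09 for PDR12 and 0.22 for YBL081W. None of these 8 genes passed the test in the mean, with edgeR adjusted p from 0.199 to 0.41.

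Across the 27 higher genes, the RNA-Seq part of the difference was the larger one in both comparisons for 10 genes and the Ribo-Seq part in both for 10 genes. The median difference was 0.65 in batch 1 and 0.76 in the second comparison, and these medians follow from how the genes were chosen. With the batch 4 RNA-Seq library in place of those of batch 3, 26 of the 27 kept their sign and 11 stayed at 0.5 or more, with a median of 0.36.

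Among the lower genes, SPC2, a subunit of the signal peptidase, was at 62.3, 61.6 and 70.0 CPM of RNA-Seq in wt of batch 1 against 80.6 CPM in pub1Δ, and at 49.7 and 50.4 CPM in wt of batch 4 against 84.5, 80.7 and 73.5 CPM. Its Ribo-Seq levels were 42.0 and 36.9 CPM against 30.2 CPM in batch 1, and 23.7 and 22.9 CPM against 22.4, 22.8 and 23.3 CPM. The mRNA of pub1Δ lay above that of every wt library, and the footprints were lower in batch 1 and overlapped in the second comparison. The occupancy differences were -0.69 and -0.68 (fitted mean -0.70, SE 0.17, edgeR adjusted p = 0.199), and -0.18 in the second comparison with the batch 4 RNA-Seq library, where SPC2 was at 56.3 CPM.

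COX9, a small subunit of cytochrome c oxidase, differed in its footprints. It was at 120 and 112 CPM of Ribo-Seq in wt of batch 1 against 57.6 CPM in pub1Δ, and at 97.8 and 81.8 CPM in wt of batch 4 against 38.8, 47.7 and 59.1 CPM, with no overlap between the strains. Its RNA-Seq levels were 18.8 to 48.6 CPM in wt and 23.6 to 30.4 CPM in pub1Δ and overlapped. The occupancy differences were -0.62 and -0.87 (fitted mean -0.68, SE 0.29, edgeR adjusted p = 0.452), and -0.67 in the second comparison with the batch 4 RNA-Seq library. COX12, another subunit, had -0.64 and -0.55, with -0.24 in the second comparison with that library and -0.04 after subtraction of the trend on coding length given further on.

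RPL29, a protein of the large ribosomal subunit, was at 710, 384 and 920 CPM of RNA-Seq in wt of batch 1 against 902 CPM in pub1Δ, and at 392 and 528 CPM against 795, 633 and 464 CPM. Its Ribo-Seq levels were 1450 and 1390 CPM against 1280 CPM, and 1500 and 1510 CPM against 1340, 1340 and 1230 CPM, so that all pub1Δ libraries were below all wt libraries in footprints while the mRNA levels overlapped. The occupancy differences were -0.66 and -0.64 (fitted mean -0.62, SE 0.27, edgeR adjusted p = 0.455). Their RNA-Seq part (0.52 and 0.44) was larger in size than their Ribo-Seq part (-0.15 and -0.20) in both comparisons. RPC11, a subunit of RNA polymerase III, had differences of -0.64 and -1.07, with 64.2 and 68.3 CPM of Ribo-Seq in wt of batch 1 against 53.9 CPM and 61.1 and 77.9 CPM against 32.8, 50.8 and 57.3 CPM. Both assays had a part in them, with Ribo-Seq differences of -0.29 and -0.58 and RNA-Seq differences of 0.35 and 0.49. IGO2, which protects messages when cells enter quiescence, had differences of -0.64 and -0.69 from more mRNA, at 36.3 to 54.8 CPM in the wt RNA-Seq libraries and 63.6 to 93.1 CPM in those of pub1Δ. With the batch 4 RNA-Seq library, where it was at 44.7 CPM, the second difference of IGO2 was 0.12.

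The other lower genes of the naming rule were EST3 of telomerase (-0.83 and -0.96), GPI15 of glycosylphosphatidylinositol anchor synthesis (-0.77 and -0.81, from 2 to 31 footprint counts a library), YBL028C (-0.71 and -0.66) and RRT14 (-0.65 and -0.68). Their second differences with the batch 4 RNA-Seq library were -0.41, -0.15, -0.22 and -0.37. Their edgeR adjusted p in the mean ran from 0.253 to 0.438. The small nucleolar RNA snR33 also met the rule (-1.26 and -0.95), although it has no reading frame, and its Ribo-Seq level was 13.9 to 23.3 CPM in batch 1 and 50.2 to 151 CPM in batches 3 and 4. TMA7, a ribosome-associated protein, was named after its values were seen. It was at 186 and 189 CPM of Ribo-Seq in wt of batch 1 against 159 CPM, and at 221 and 189 CPM against 202, 172 and 127 CPM, with occupancy differences of -0.60 and -0.91, the latter -0.39 with the batch 4 RNA-Seq library. The RNA-Seq differences of TMA7 (0.37 and 0.60) were larger in size than its Ribo-Seq differences (-0.24 and -0.32). RPL41B (-0.58 and -1.10) has a near-identical copy, RPL41A, and its uniquely mapped counts are uncertain.

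Across the 45 lower genes, the RNA-Seq part of the difference was the larger one in both comparisons for 21 genes and the Ribo-Seq part in both for 8 genes. The medians were -0.63 and -0.76, again set by the choice of genes. With the batch 4 RNA-Seq library, 43 of the 45 kept their sign and 22 stayed at 0.5 or more in size, with a median of -0.49.

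The lower genes were short. Of the 45, 43 have a reading frame, with a median coding length of 396 bases against 1290 bases over all tested genes and 1878 bases in the higher genes. Of the same 5 length groups, in the shortest (78 to 675 bases) lay 34 of the lower and 2 of the higher genes, and in the longest (2244 to 14733 bases) 1 of the lower and 9 of the higher genes. The coding sequences of RPL29 and COX9 are shown because they illustrate how short these frames are at 180 bases each, and the start and stop codons are in capitals (RefSeq assembly R64, minus strand of each chromosome).
RPL29, chrVI:223258-223437: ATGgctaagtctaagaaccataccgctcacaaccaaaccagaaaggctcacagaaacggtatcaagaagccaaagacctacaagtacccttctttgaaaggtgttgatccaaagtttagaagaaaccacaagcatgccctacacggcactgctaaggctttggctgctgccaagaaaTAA
COX9, chrIV:334217-334396: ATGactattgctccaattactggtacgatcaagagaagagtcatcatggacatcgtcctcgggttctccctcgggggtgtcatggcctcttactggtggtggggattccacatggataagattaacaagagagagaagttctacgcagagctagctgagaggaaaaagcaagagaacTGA

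Length moved with the occupancy differences of all genes. Across 4461 genes the difference correlated with log2 coding length at r = 0.26 in batch 1 and 0.54 in the second comparison, and at 0.18 in the second comparison with the batch 4 RNA-Seq library. From the shortest to the longest group the median difference was -0.12, -0.00, 0.01, 0.03 and 0.06 in batch 1 and -0.35, -0.14, 0.02, 0.13 and 0.30 in the second comparison. Between wt of batches 4 and 1 the correlation was 0.00. The medians of that difference were nonetheless -0.11, -0.11, -0.11, -0.14 and 0.11 from the shortest to the longest group. GC content had correlations of 0.05 and -0.04 and the mean RNA-Seq level 0.02 and 0.02.

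**Figure D3:**
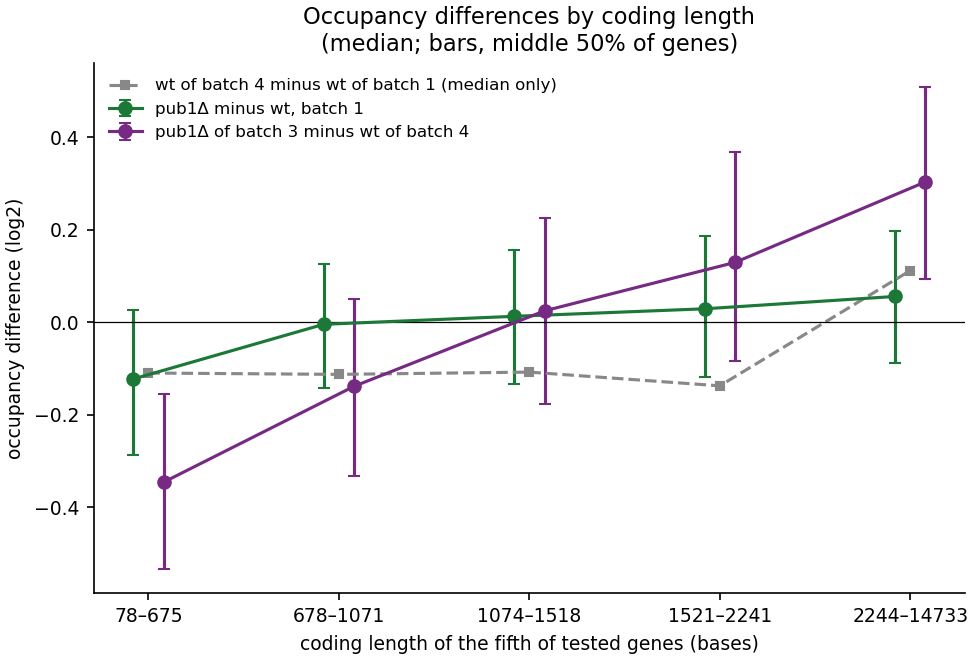
Median occupancy difference (log2) of the genes in each of 5 coding length groups (x axis, range of lengths in bases), with bars over the middle 50% of genes, for batch 1 (green) and for pub1Δ of batch 3 against wt of batch 4 (purple). The grey line gives wt of batch 4 minus wt of batch 1, and the purple medians run from -0.35 in the shortest to 0.30 in the longest group.

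The RNA-Seq libraries carried this gradient to different degrees. The median log2 CPM of the longest group minus that of the shortest group was 0.44 to 0.51 in the wt RNA-Seq libraries of batch 1 and 0.30 in that of pub1Δ. It was 0.34 and 0.14 in wt of batch 4, and -0.54, -0.25 and -0.20 in pub1Δ of batch 3. In pub1Δ RNA-Seq replicate 4 of batch 4 it was 0.16, between the wt libraries of its batch. The Ribo-Seq libraries ran from -0.35 to -0.10 with overlap between the strains. The part of length, of RNA integrity and of library preparation in the occupancy differences was not tested.

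**Figure D4:**
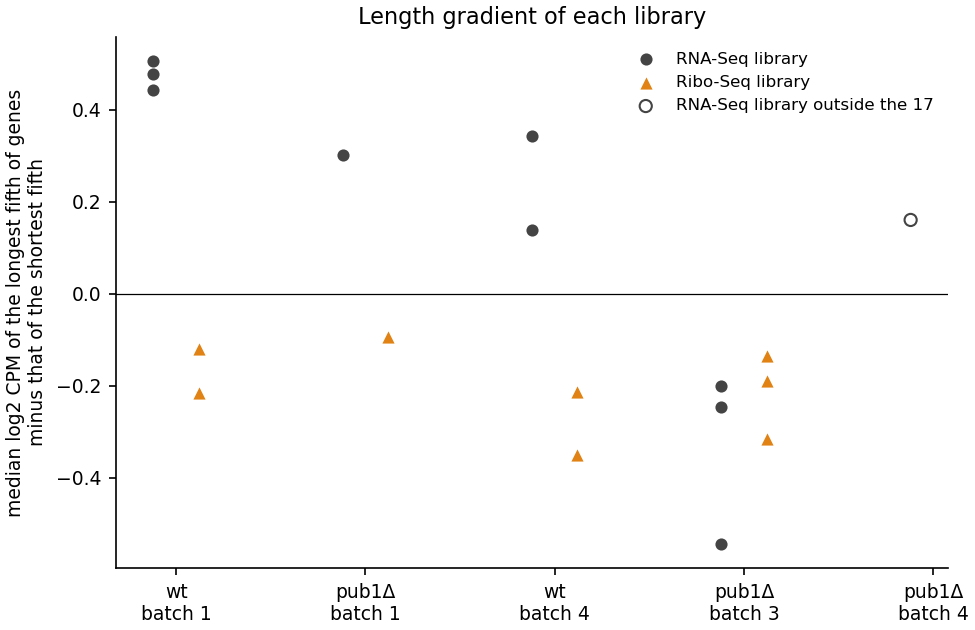
Median log2 CPM of the longest of the 5 length groups minus that of the shortest (y axis) in each RNA-Seq library (grey circles) and Ribo-Seq library (orange triangles), by strain and batch. The 3 RNA-Seq libraries of pub1Δ of batch 3 lie at -0.54 to -0.20, all below the other RNA-Seq libraries, and the open circle is the pub1Δ library of batch 4 at 0.16.

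When the smooth trend on log2 coding length was subtracted from each comparison, the correlation between the comparisons went from 0.16 to 0.02, and 14 of the 27 higher and 9 of the 45 lower genes stayed past 0.5 in both. CLG1 then had 0.91 and 1.81, SBP1 0.57 and 0.68, RPI1 0.57 and 0.96, YBL081W 0.58 and 0.87, and EST3 -0.75 and -0.68. COX9 had -0.31 and -0.26, and RPL29 -0.35 and -0.03.

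Of 21 gene lists, histones, cytosolic and mitochondrial ribosomal proteins and the respiratory chain, whose median coding lengths were 399 to 690 bases, had the lowest medians in the second comparison. Cytosolic ribosomal proteins had medians of -0.13 in batch 1 and -0.33 in the second comparison, and 114 of the 139 tested were below 0 in both and 0 above in both. RPL29, RPL41B, RPS29A (-0.47 and -0.78) and RPL39 (-0.47 and -0.60) led the list. Its median coding length was 435 bases. After the length trend was subtracted, its medians were -0.01 and -0.02, with 50 below and 34 above 0 in both, and with the batch 4 RNA-Seq library the second median was 0.02. No member of this list was called in any of the 3 tests, and over all genes 29.4% were below and 27.7% above 0 in both as measured, and 25.7% and 25.6% after subtraction.

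Respiratory chain and ATP synthase genes had medians of -0.22 and -0.19, with 25 of 38 below 0 in both and 3 above. COX9, COX12, the ATP synthase subunit gene ATP19 (-0.44 and -0.61) and the succinate dehydrogenase subunit gene SDH4 (-0.53 and -0.39) led it. The second median was -0.30 with the batch 4 RNA-Seq library and 0.13 after the length trend was subtracted. Mitochondrial ribosomal proteins had medians of -0.06 and -0.25, with 38 of 76 below 0 in both and 7 above, and MRPL25 at -0.60 and -0.82, and 0.01 and 0.04 after subtraction. Histone genes had -0.11 and -0.35, with 9 of 11 below 0 in both and 0 above, HTB2 at -0.29 and -0.43, and 0.03 and -0.01 after subtraction. For these lists no member was called.

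The endoplasmic reticulum list (translocon, signal recognition particle, signal peptidase and N-glycosylation) had medians of -0.11 and -0.14, with 27 of 43 below 0 in both and 4 above. Its leaders were SPC2, SRP21 (-0.58 and -0.51), SPC3 (-0.48 and -0.96) and OST4 (-0.45 and -0.70). After subtraction the medians were -0.07 and 0.02, with 19 below and 4 above 0 in both. SRP14 of this list was called in the second comparison (1 of 43, against 0.335% of all genes). The median occupancy of the list in wt of batch 4 minus wt of batch 1 was -0.66, larger in size than both strain medians.

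Glycolysis and fermentation genes had medians above 0 in both comparisons under each of the 24 alternatives run, with medians of 0.15 and 0.25, 22 of 27 above 0 in both and 0 below. After the length trend was subtracted the medians were 0.18 and 0.23, with 24 above and 1 below 0 in both, and over all alternatives they ran from 0.05 to 0.25 and from 0.18 to 0.33. The lists of stress granule and P-body, cell wall, and methionine and sulfate genes, described below, also kept both medians above 0 in every alternative. HXK2, the main hexokinase, had 0.29 and 0.38. CDC19, pyruvate kinase, had 0.24 and 0.42, ENO1, enolase, 0.27 and 0.40, and TDH1, a glyceraldehyde-3-phosphate dehydrogenase, 0.29 and 0.28. HXK2 was at 2270 and 2220 CPM of Ribo-Seq in wt of batch 1 against 2960 CPM, and at 2750 and 2760 CPM in wt of batch 4 against 3560, 3570 and 2820 CPM. Over the whole list, however, the median Ribo-Seq differences were near 0, at 0.01 and 0.03. The median RNA-Seq differences of the list were -0.17 and -0.11. No member passed the test (HXK2 fitted mean 0.34, SE 0.16, edgeR adjusted p = 0.488), and several members share reads with close copies (TDH1 to TDH3, ENO1 and ENO2).

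**Figure D5:**
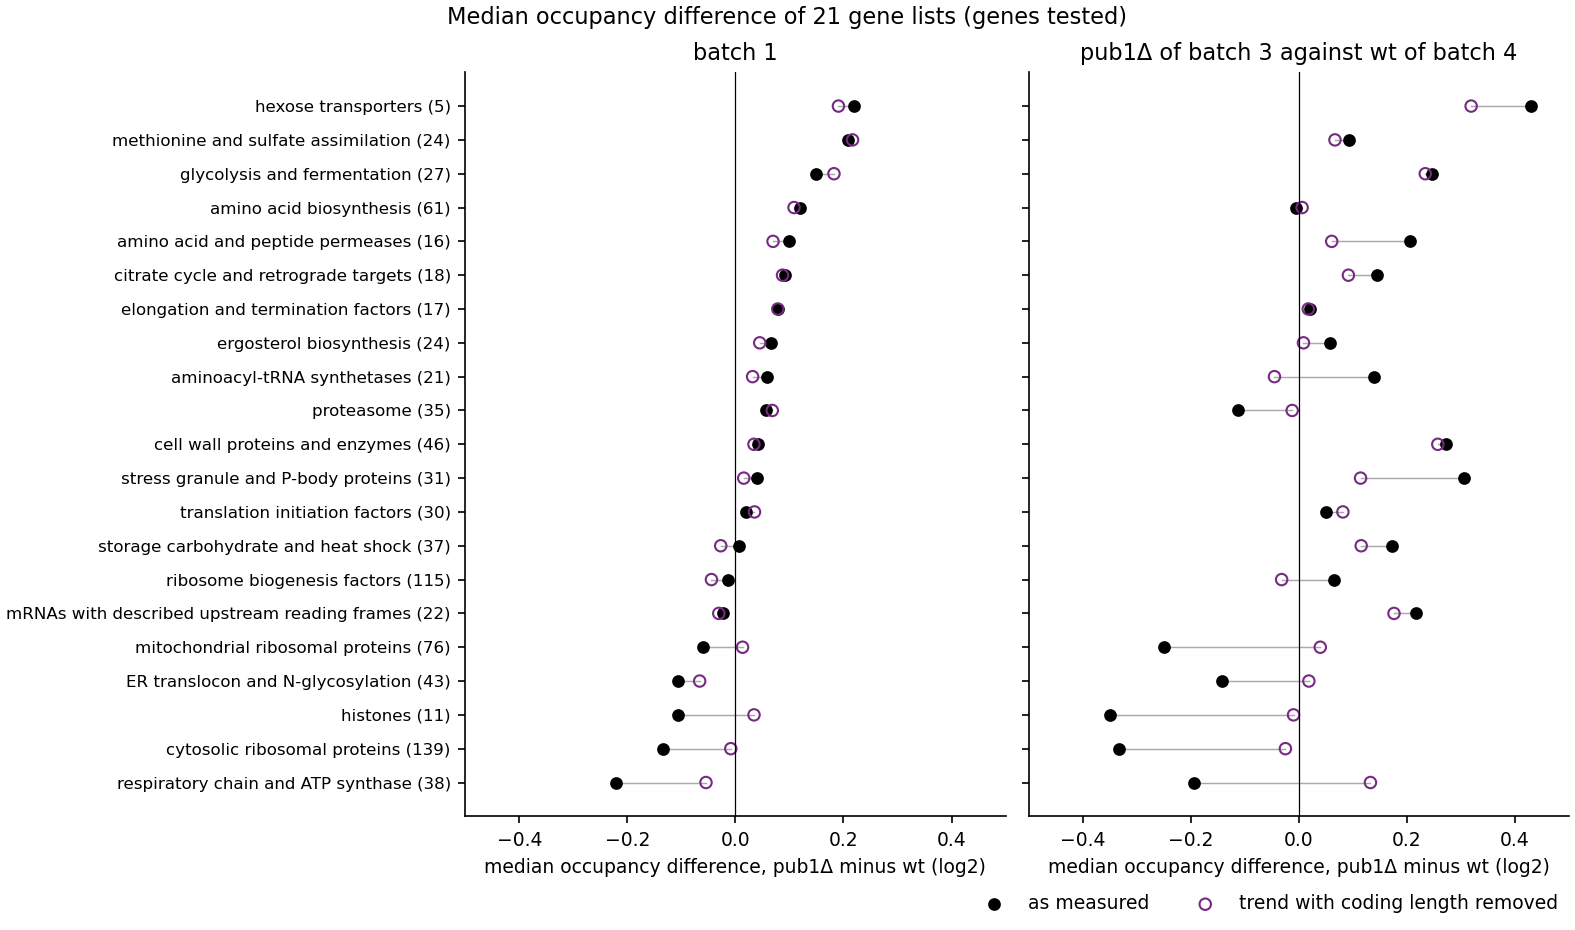
Median occupancy difference (x axis, log2) of 21 gene lists, with the number of genes tested in brackets, within batch 1 (left) and for pub1Δ of batch 3 against wt of batch 4 (right), as measured (black) and with the trend on coding length subtracted (open purple). The open circles of the ribosomal protein and histone lists lie near 0, and those of glycolysis stay at 0.18 and 0.23.

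Methionine and sulfate assimilation genes had medians of 0.21 and 0.09, with 13 of 24 above 0 in both and 3 below, and MET5 and MET13 past 0.5 in both. MET6, methionine synthase, had 0.36 and 0.66 and MET10, the other sulfite reductase subunit, 0.28 and 0.27. Amino acid biosynthesis genes as a whole had 0.12 and -0.00, with 27 of 61 above and 9 below 0 in both. The second median of that list changed side in 15 of 24 alternatives. Its leaders were PHA2 (-0.41 and -0.41), ARG1 (-0.33 and -0.63), HIS6 (0.31 and 0.46) and THR1 (0.41 and 0.27). Citrate cycle genes and targets of the retrograde pathway had 0.09 and 0.14, the latter changing side in 2 of 24 alternatives. Of these genes, 11 of 18 were above and 1 below 0 in both, among them CIT2, the peroxisomal citrate synthase, at 0.73 and 0.30. None of these genes was called.

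Cell wall genes had medians of 0.04 and 0.27, with 24 of 46 above and 3 below 0 in both, led by CTS1, a chitinase (0.34 and 0.63), and FKS1, a glucan synthase (0.22 and 0.82). Amino acid and peptide permeases had 0.10 and 0.21 with 8 of 16 above and 0 below 0 in both, and the second median was -0.07 with the batch 4 RNA-Seq library. Hexose transporters had 0.22 and 0.43 with 2 of 5 above 0 in both, HXT3 and HXT2, and -0.16 in the second comparison with that library. Storage carbohydrate and heat shock genes had 0.01 and 0.17, with 12 of 37 above and 3 below 0 in both and -0.16 with that library. HSP60, a mitochondrial chaperonin, led that list at 0.32 and 0.72. No member of these lists was called.

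Lists of translation factors and of mRNA-binding proteins followed no single direction. Stress granule and P-body genes, among whose proteins Pub1 belongs, had 0.04 and 0.31, with 14 of 31 above and 5 below 0 in both, led by SBP1, CCR4 and NGR1 (0.35 and 0.86), and the second median was 0.07 with the batch 4 RNA-Seq library. DED1 of this list was called in the second comparison (1 of 31, against 0.335% of all genes). Translation initiation factors had 0.02 and 0.05, with 11 of 30 above and 9 below, and 2 called in the second comparison (DED1 and FUN12, against 0.335% of all genes), of which DED1 was at -0.23 with the batch 4 RNA-Seq library. Elongation and termination factors had 0.08 and 0.02, with 5 of 17 above and 1 below. Their second median changed side in 5 of 24 alternatives, among them TMM factors over both assays. Ribosome biogenesis factors had -0.01 and 0.07, with 31 of 115 above and 23 below. The first median changed side in 7 of 24 alternatives and the second in 4. Aminoacyl-tRNA synthetases had 0.06 and 0.14, with 11 of 21 above and 2 below and a second median of -0.04 after the length trend was subtracted, and messages with described upstream reading frames -0.02 and 0.22, with 8 of 22 above and 5 below. Ergosterol biosynthesis had 0.07 and 0.06, with 9 of 24 above and 2 below, and the proteasome 0.06 and -0.11, with 8 of 35 above and 13 below. The second medians of initiation factors and of ergosterol biosynthesis each changed side in 3 of 24 alternatives.

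In the second comparison alone, edgeR called 15 genes (13 higher and 2 lower, 0.335% of those tested), and 702 had an unadjusted p under 0.05. They were PUB1 itself, CLG1, DED1, SRO9, RSP5, FUN12, PIN4, VMA2, SEC31, DNF1, CHO2, REA1 and YNL190W, which were higher, and SRP14 and ANK1, which were lower. The call of the deleted PUB1 rests on 1 RNA-Seq count in each batch 3 library and 1, 20 and 4 Ribo-Seq counts. It has no meaning as occupancy. Of the 14 without PUB1, 7 had the same sign in batch 1 and 7 the opposite sign, against 57.1% of all genes with the same sign, and CLG1 alone reached 0.5 the same way. With the batch 4 RNA-Seq library 0 genes were called (184 at an unadjusted p under 0.05), in a fit with 1 pub1Δ RNA-Seq library in place of 3. The fitted changes were then 1.24 for CLG1, 0.82 for DNF1, 0.71 for YNL190W, -0.67 for ANK1 and -0.57 for SRP14, and those of DED1 and SRO9 changed sign. The count was 7 without wt RNA-Seq replicate 2, 26 without wt RNA-Seq replicate 3, 150 without pub1Δ RNA-Seq replicate 3, 6 and 8 without wt Ribo-Seq replicates 2 and 3, and 9 without pub1Δ Ribo-Seq replicate 2.

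DED1, a helicase of translation initiation (YOR204W, chromosome XV, 722911 to 724725), was at 119, 128 and 87.5 CPM of RNA-Seq in wt of batch 1, 79.9 CPM in pub1Δ of batch 1, 150 and 152 CPM in wt of batch 4, and 28.9, 37.0 and 53.4 CPM in pub1Δ of batch 3. Its Ribo-Seq levels were 1420 to 1470 CPM in wt and 1130 to 1250 CPM in pub1Δ. The fitted change of the second comparison was 1.63 (SE 0.24, edgeR adjusted p = 0.00118), the difference in batch 1 was 0.25, and with pub1Δ RNA-Seq replicate 4, which held DED1 at 145 CPM, the fitted change was -0.23 (edgeR adjusted p = 1). SRO9, an RNA-binding protein of the La family, had 45.2 and 53.1 CPM of RNA-Seq in wt of batch 4 against 8.88, 11.9 and 20.2 CPM in pub1Δ of batch 3 and 58.7 CPM in replicate 4. Its fitted changes were 1.65 (SE 0.26, edgeR adjusted p = 0.00299) and, with replicate 4, -0.47 (edgeR adjusted p = 1), and its difference in batch 1 was -0.42.

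RSP5, a ubiquitin ligase, was the only gene for which the comparisons differed past the threshold (1 of 4473, 0.0224%, with 247 at an unadjusted p under 0.05), and it was named after its values were seen. Its RNA-Seq levels were 163, 160 and 165 CPM in wt and 180 CPM in pub1Δ of batch 1, and 145 and 124 CPM in wt of batch 4 against 46.4, 47.5 and 54.5 CPM in pub1Δ of batch 3. Its Ribo-Seq levels were 342 and 332 CPM against 275 CPM, and 162 and 165 CPM against 152, 155 and 142 CPM. The occupancy differences were -0.43 and 1.30, the fitted difference between them was 1.76 (SE 0.26, edgeR adjusted p = 0.00434), and replicate 4 of batch 4 held RSP5 at 163 CPM of RNA-Seq.

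SRP14, a protein of the signal recognition particle, was at 101 and 123 CPM of RNA-Seq in wt of batch 4 against 213, 171 and 162 CPM in pub1Δ of batch 3, and at 105, 92.8 and 99.5 CPM against 131 CPM in batch 1. Its occupancy differences were -0.31 and -1.04 (fitted -1.06 in the second comparison, SE 0.22, edgeR adjusted p = 0.0272), and -0.57 with replicate 4 in the fit of the second comparison (edgeR adjusted p = 1). ANK1 had -0.15 and -0.82 (fitted -0.84, SE 0.18, edgeR adjusted p = 0.0397). DNF1, a phospholipid flippase, had 0.30 and 1.51, and YNL190W -0.13 and 1.44. The level of DNF1 differed between batches within a strain, at 209 to 216 CPM of RNA-Seq in wt of batch 1 and 67.4 and 55.9 CPM in wt of batch 4.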

How the data were processed

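RNA-Seq and Ribo-Seq libraries of wt and pub1Δ yeast were analysed from the deposited raw counts per gene, which the authors made without normalization. Before deposit, adapters were cut off by the authors (cutadapt 2.10), identical Ribo-Seq reads were collapsed (seqkit) and reads matching rRNA were taken out (bowtie2). STAR 2.7.9a then aligned the rest to assembly R64 and counted each uniquely placed read to its gene. Unique mapping makes near-identical copies uncertain. The table of counts matched the file of each of the 26 libraries. Names, coordinates and sequences came from RefSeq R64, to which 5956 of 7036 identifiers matched.

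Counts were analysed in R 4.3.3 with edgeR 4.0.16. A gene was kept if 4 or more libraries of each assay reached 10 CPM. TMM factors were computed within each assay, and log2 CPM used a prior count of 2. The quasi-likelihood test was fitted with 1 mean per strain, batch and assay over 17 libraries, which share 1 estimate of the spread, since pub1Δ of batch 1 has 1 library of each assay. P-values were adjusted over all 4473 genes with the Benjamini-Hochberg method, and genes were called at an adjusted p under 0.05. The script was tested on simulated data.

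Genes were named by rule. Among same-way genes with a mean of 30 CPM or more, up to 10 in each direction with the largest smaller difference were named, as were up to 5 called genes in each direction of each test and up to 4 leading members of each of 21 lists. CCR4, MET5, MET13 and COX12 entered through the lists. Genes outside the rule (GDH2, TMA7, RSP5, COX16, PPM2, the other genes called in the second comparison and those next to the size limit) were chosen after their values were seen. The members and lists were chosen with earlier results of these data known.

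Alternatives were other scalings, filters, prior counts and sizes, DESeq2 1.42.0, ComBat-seq in sva 3.50.0, all 26 libraries, an additive batch term, a replicate block, pub1Δ RNA-Seq replicate 4, subtraction of a lowess trend on coding length, and leaving out each library. T runs of lengths other than 6 and the size of 0.3 for them were chosen after seeing the data. The correlation of same-numbered RNA-Seq and Ribo-Seq libraries in their deviations from group means was 0.09 to 0.19, not above 0.1 for every pair, and no source says that a number marks a shared lysate, so the numbers were not taken to pair libraries. No 2 libraries of a group agreed within sampling noise (chi-square per degree of freedom of at least 2.12).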

Additional observations from a re-analysis of the deposited data

Results flagged for a closer look

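Of 104 groups of 4 or 5 libraries of a strain and assay looked at for the named genes, 6 had 1 library far from the others. Chance marks about 1 in 20 such groups, and the groups join batches. PDR12 was at 58.6 CPM in pub1Δ Ribo-Seq replicate 4 of batch 1 against 14.3 to 21.8 CPM in the other pub1Δ Ribo-Seq libraries. SPC2 was at 30.2 CPM in the same library against 22.4 to 23.3 CPM. DNF1 was at 129 CPM there against 14.3 to 26.9 CPM, and at 190 CPM in pub1Δ RNA-Seq replicate 5 against 34.9 to 38 CPM. YNL190W was at 151 CPM in pub1Δ RNA-Seq replicate 5 against 38.9 to 47 CPM. All 5 values belong to the pub1Δ libraries of batch 1, set against those of batch 3. SRO9 was at 53.1 CPM in wt RNA-Seq replicate 3 against 42 to 45.2 CPM in the other wt RNA-Seq libraries.

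RSP5 was marked because its occupancy difference was not the same in the comparisons, with a fitted difference between them of 1.761 (SE 0.26, edgeR adjusted p = 0.00434).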

How the results depend on the processing

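Counts of called genes moved more with the fit than with the scaling. Without a filter, 26 genes were called in the second comparison, 2 in the mean, and 306 differed the same way, and with a filter at 30 CPM 32 did. With the batch 4 pub1Δ RNA-Seq library, 0 were called in the second comparison and 47 differed the same way. With all 26 libraries in the fit, 59 were called in the second comparison. DESeq2 called 67 there and 12 in the mean. The replicate block called 122 and 44, against 15 and 1 without it, and 0 in batch 1 with or without it. Among the named same-way genes the block called SWR1, SBP1, YBL028C, RPL29 and RPC11 beside CLG1 in the mean. Additive batch and strain terms called 0 in the mean, where 162 had an unadjusted p under 0.05 by edgeR, and ComBat-seq with strain alone called 123. At a size of 0.3, 346 genes differed the same way, at a size of 1, 0, and 31 after the length trend was subtracted. The cause of these shifts was not tested, save that sizes, filters and the number of libraries change what is counted. Leaving out 1 library gave 0 calls in batch 1 in all 5 fits, 6 to 150 in the second comparison, 1 to 2 in the mean (2 without wt RNA-Seq replicate 5, pub1Δ RNA-Seq replicate 3 or pub1Δ Ribo-Seq replicate 3) and 57 to 109 same-way genes (109 without wt RNA-Seq replicate 5). The single pub1Δ libraries of batch 1 could not be left out. With TMM factors over both assays the second comparison split into 13 higher and 4 lower, and with plain CPM the same-way genes split into 35 higher and 39 lower.

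The sign reversed for SRO9 with the batch 4 library (-0.47 in the second comparison, -0.46 in the mean), with additive terms (-0.44) and with ComBat-seq (-0.41), for DED1 with the batch 4 library (-0.23 in the second comparison), and for YNL190W with additive terms (-0.069) and ComBat-seq (-0.075). Scalings moved the median of all genes by at most 0.04. Of 1008 list medians under alternatives, 939 stayed on the same side of 0. Depth limits the batch 3 footprints most, at 540986 to 986174 counts a library.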
